A study of Mus musculus with 4 samples.

Results

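Toll-like receptor (TLR) and MyD88 pathway transcripts were followed in leukaemia stem cells, the cells that can propagate the disease in a new host. The 10 genes were chosen by symbol: the receptors Tlr1, Tlr2, Tlr4, Tlr6, Tlr7, Tlr9 and Tlr13, the trafficking factor Unc93b1, the adaptor Myd88 and the kinase Irak4. All 10 were among the 16442 genes of the deposited table. The first group, KO, held 2 libraries from C57BL/6 mice labelled as knocked out for Rreb1, a zinc-finger transcription factor. The second, WT, held 2 libraries from C57BL/6 mice labelled wild type. All 4 libraries were poly(A) RNA from bone marrow with the disease state leukaemia. The genotype label of KO replicate 2 names Rreb2 instead of Rreb1, and the extraction text refers to TAMs although the titles name LSC. The labels give neither age, the deleted part of the gene nor the leukaemia driver, and do not say if animals were pooled for a replicate, so p-values measure only the spread between these libraries.

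TLRs recognise microbial molecules and are best known in myeloid cells. Surface receptors such as TLR2, which pairs with TLR1 or TLR6, and TLR4 bind bacterial lipoproteins and lipopolysaccharide, whereas TLR7, TLR9 and, in mice, TLR13 bind nucleic acids in endosomes and depend on UNC93B1 to get there. After binding, nearly all of them recruit MyD88, which assembles IRAK4 and further IRAK kinases and leads to activation of NF-kB and of IRF5.

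Libraries held 16590830 to 18451251 assigned reads, so that 3 reads on 2 kb of exons, the limit a count of 0 allows, equal 0.0813 to 0.0904 FPKM (reads per exon length and library size; counting error only). The leukaemia genes Hoxa9 and Meis1 were present, at 33.8 ± 2.87 and 11.7 ± 0.278 FPKM in KO and at 29.6 ± 1.01 and 11.1 ± 0.472 FPKM in WT (SD, n = 2 each). Of the progenitor markers, Kit was higher in KO, at 7.26 ± 0.146 FPKM against 3.95 ± 0.423 FPKM in WT (adjusted p = 0.051 by limma and 0.00077 by limma-voom). Cd34 was lower in KO, at 50.2 ± 0.467 FPKM against 69.9 ± 2.25 FPKM in WT (adjusted p = 0.065 by limma and 0.0078 by limma-voom). Of the granule genes, Elane was at 6735 ± 665 FPKM in KO and 6162 ± 1355 FPKM in WT, with overlap. The granule gene Mpo was at 192 and 166 FPKM in KO, against 399 and 309 FPKM in WT (adjusted p = 0.053 by limma and 0.00051 by limma-voom; these 6 genes were chosen after their values were seen). Rreb1 itself was at 6.10 and 6.93 FPKM in KO, against 5.24 and 6.57 FPKM in WT. These groups overlapped (limma adjusted p = 0.616), so over all exons the targeted gene gave no check of the labels, and KO and WT mean the libraries so labelled. Of 11768 genes tested, 71 were higher and 48 lower in KO at an adjusted p below 0.05.

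Sequence matters most for Tlr1 and Tlr6, which lie close together on chromosome 5 and are close copies. Their coding sequences (2385 and 2418 bases, GENCODE M21) were 76.3% identical over 2347 aligned bases, against 59.1% for Tlr1 with Tlr2. Up to Tlr1 coding base 1293 the identity was 60.9%, and from base 1294 to the stop codon it was 94.3%. The near-identical part held 6 identical runs of at least 50 bases, the longest of 229 and 208 bases. Of all 100-base windows in the Tlr1 coding sequence, 11.3% occurred unchanged in Tlr6. Reads from these stretches cannot be assigned to either gene with certainty, and the authors' treatment of them is not given in the sources used here. Below, 4 windows of 100 coding bases show the contrast, with bases that differ between the genes in capitals (GRCm38, 5′ to 3′ on the minus strand). The first pair, from the upstream part, is at chr5:64926418-64926517 in Tlr1 and chr5:64954709-64954808 in Tlr6, and differs at 43 of 100 bases.
Tlr1 upstream part: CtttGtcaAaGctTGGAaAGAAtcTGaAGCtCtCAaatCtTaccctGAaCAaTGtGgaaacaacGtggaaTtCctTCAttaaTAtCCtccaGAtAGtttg
Tlr6 upstream part: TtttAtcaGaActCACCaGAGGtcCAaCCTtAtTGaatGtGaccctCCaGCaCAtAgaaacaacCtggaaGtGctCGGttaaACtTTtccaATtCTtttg
The second pair, from the near-identical part, is at chr5:64925697-64925796 in Tlr1 and chr5:64953988-64954087 in Tlr6, and differs at 1 of 100 bases.
Tlr1 near-identical part: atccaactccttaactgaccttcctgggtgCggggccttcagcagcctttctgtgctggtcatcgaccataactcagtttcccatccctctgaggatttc
Tlr6 near-identical part: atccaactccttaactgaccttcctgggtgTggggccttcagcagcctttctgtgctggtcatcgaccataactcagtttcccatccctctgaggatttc

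Promoter sequence (250 bases before to 50 after the start site, RefSeq, GRCm38.p6) was found for 7 of the 10 genes in 9 entries. It is shown for 3 genes that held a match to the searched letters. PU.1 and the interferon regulatory factors are known regulators of myeloid genes, and their part in these data was not tested. The searched letters, on both strands, were GAGGAAG (a core bound by PU.1), an interferon-stimulated response element (a pair of GAAA runs spaced by 2 bases of any kind) and a palindromic NF-kB form with 2 free bases at its centre. GAGGAAG was in entries of Tlr1, Tlr9 and Tlr13, and in 13.6% of all 32851 promoter entries. The interferon-stimulated form was in entries of Myd88 and Tlr6, and in 3.44% of all entries. The NF-kB form was in 0 of the 9 entries and in 1.47% of all. A match describes these letters only, not a site. Capitals mark the match in Tlr1 (chr5:64933509-64933808, minus strand, first base at −23 from the start site), in Tlr13 (chrX:106143025-106143324, plus strand, −83) and in Myd88 (chr9:119339969-119340268, minus strand, −40). The start site of the Myd88 entry lies 1393 bases from the 5′ end of the gene in GENCODE M21, inside the span used for its FPKM. The Tlr6 matches lie in an entry whose start site is 931 bases from that gene's 5′ end, and the entry at 49 bases holds none. The entries of Tlr2 and Irak4, and the Tlr1 entry at 864 bases from that gene's 5′ end, hold none either.
Tlr1 promoter: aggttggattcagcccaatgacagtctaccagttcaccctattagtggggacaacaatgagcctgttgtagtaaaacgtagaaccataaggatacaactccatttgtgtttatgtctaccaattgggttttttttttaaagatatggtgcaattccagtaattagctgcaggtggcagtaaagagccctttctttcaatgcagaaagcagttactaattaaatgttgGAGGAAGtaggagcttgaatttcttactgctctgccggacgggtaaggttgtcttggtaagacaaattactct
Tlr13 promoter: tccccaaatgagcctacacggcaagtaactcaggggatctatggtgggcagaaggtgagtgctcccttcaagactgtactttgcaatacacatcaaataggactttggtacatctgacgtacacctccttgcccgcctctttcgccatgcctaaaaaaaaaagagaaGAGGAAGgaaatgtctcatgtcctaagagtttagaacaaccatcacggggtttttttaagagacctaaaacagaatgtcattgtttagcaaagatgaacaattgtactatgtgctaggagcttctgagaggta
Myd88 promoter: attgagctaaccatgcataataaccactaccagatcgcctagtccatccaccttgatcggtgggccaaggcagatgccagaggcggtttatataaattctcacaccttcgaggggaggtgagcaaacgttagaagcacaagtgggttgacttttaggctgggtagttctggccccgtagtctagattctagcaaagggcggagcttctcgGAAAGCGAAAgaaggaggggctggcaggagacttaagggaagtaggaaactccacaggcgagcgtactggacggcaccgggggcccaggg

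Levels of the 10 genes spanned several orders, with the trafficking factor and the adaptor far above the receptors. In order of mean FPKM they were Unc93b1, Myd88, Irak4, Tlr1, Tlr2, Tlr13, Tlr6, Tlr7, Tlr4 and Tlr9. Unc93b1 was 2.84 to 3.25 times as high as Myd88, and Myd88 3.10 to 4.70 times as high as Irak4, in every library. Ranges over the 4 libraries overlapped for Irak4 and Tlr1, for Tlr2 and Tlr13, for Tlr13 and Tlr6, and for Tlr7 and Tlr4, so these neighbours did not differ beyond their spread. Tlr9, the endosomal DNA receptor, was lowest, below 1 FPKM in all libraries.

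**Figure D1:**
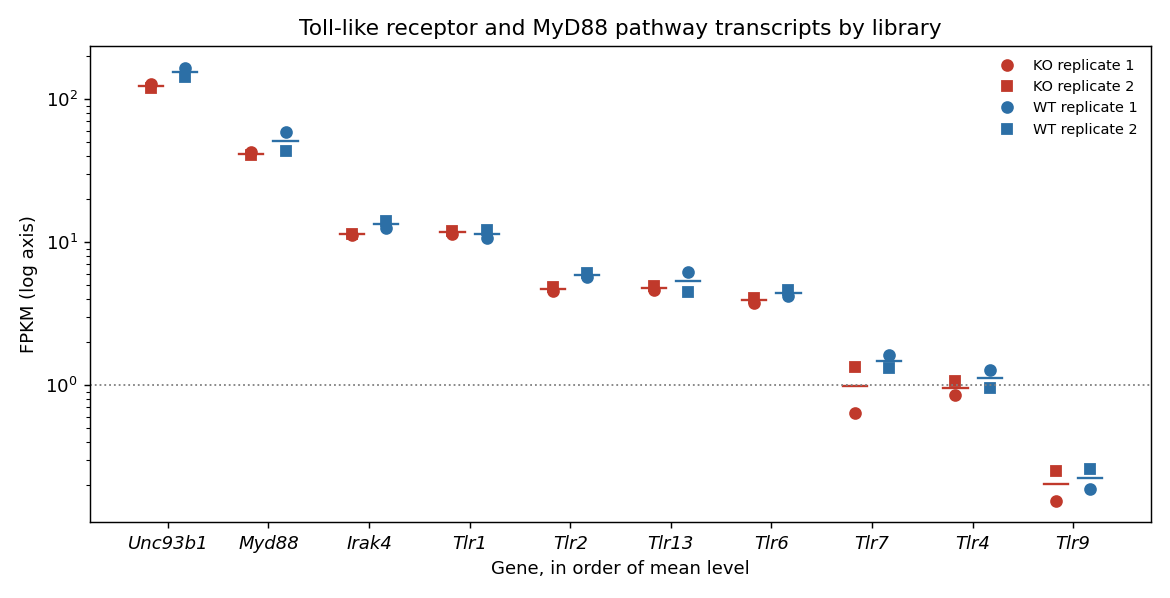
FPKM (log axis) of the 10 genes in each library, KO left of WT; circles are replicate 1, squares replicate 2, short lines group means, and the dotted line the level of 1 FPKM needed for testing. Unc93b1 lay between 120 and 166 FPKM, and Tlr9 between 0.156 and 0.260 FPKM.

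No gene of the set passed the test between KO and WT. Of the 9 genes tested (a mean of at least 1 FPKM, which Tlr9 missed), 0 were called higher and 0 lower by limma at an adjusted p below 0.05, against 0.603% and 0.408% of all tested genes (1.01% in either direction). By limma-voom on recovered reads 0 were called too, against 3.74% higher and 3.37% lower of all genes it tested (7.11% in either direction). Without the filter on level, 0 of all 10 were called, against 0.136% higher and 0.0617% lower of 16206 genes (0.197% in either direction). At an unadjusted limma p below 0.05, 2 were lower (Tlr2 and Unc93b1) and 0 higher, against 9.35% and 11.4% of all tested genes. By limma-voom, 5 were lower at an unadjusted p below 0.05 (Tlr2, Tlr7, Unc93b1, Myd88 and Irak4), against 12.6% of the genes it tested. The differences were small and mostly below 0: 8 of 9 were negative, against 46.0% of all tested genes, with a median log2 difference of −0.20 for the set and 0.03 for all tested genes. Without KO replicate 1 the median of the set was −0.096. For 5 of 9, each KO value was under each WT value (Tlr2, Tlr6, Unc93b1, Myd88 and Irak4), against 24.9% of all tested genes, and the reverse held for 0, against 30.5%. In bulk RNA, fewer cells of a type and less RNA per cell cannot be told apart.

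**Figure D2:**
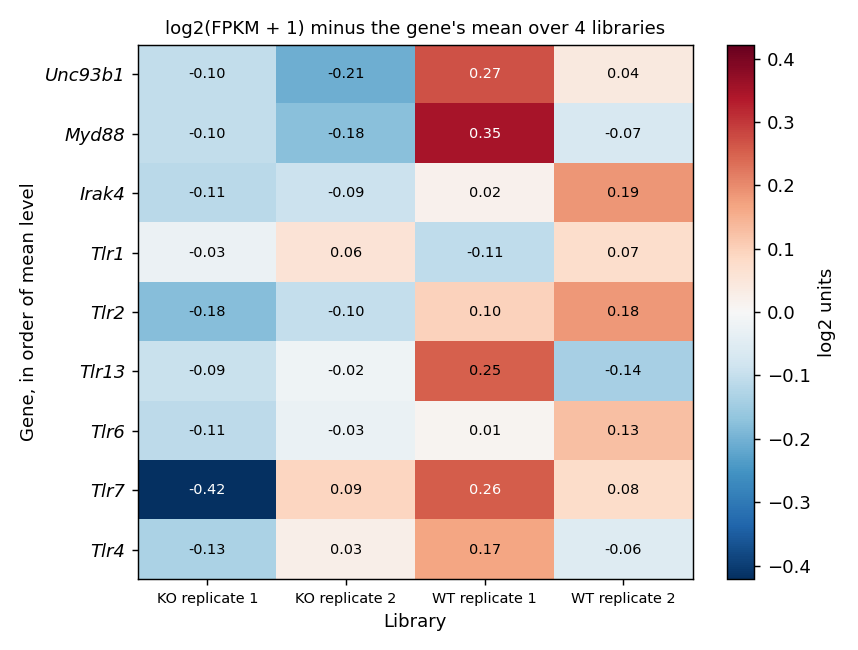
Each library's log2(FPKM + 1) minus the gene's mean over the 4 libraries, for the 9 tested genes. Red cells are above and blue cells below that mean; KO replicate 1 was the lowest library for 5 of the 9 genes and WT replicate 1 the highest for 5.

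Among the surface receptors, Tlr2, the shared partner for bacterial lipoproteins, had the clearest separation. Tlr2 (chromosome 3, 83836272 to 83841767, minus strand, GRCm38) was at 4.56 and 4.87 FPKM in KO, against 5.74 and 6.14 FPKM in WT, from 253 and 250 against 319 and 307 reads. Both KO values were the lower ones, and the groups did not overlap. The log2 difference was −0.28 (95% limits −0.54 to −0.02), which did not pass over all genes (limma adjusted p = 0.213). With each library left out in turn it stayed between −0.32 and −0.24.

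Tlr1, which forms the triacyl lipopeptide receptor with Tlr2, was the most abundant receptor transcript and the only tested gene of the set with a difference above 0. Tlr1 (chromosome 5, 64924679 to 64933563, minus strand) was at 11.3 and 12.1 FPKM in KO, against 10.7 and 12.2 FPKM in WT. The KO values lay inside the WT range. Its log2 difference was 0.03 (95% limits −0.22 to 0.28, limma adjusted p = 0.874), which bounds a change on this scale to between 0.861-fold and 1.22-fold, and its sign turned under other settings. Tlr6 (chromosome 5, 64952031 to 64960097, minus strand), the partner for diacyl lipopeptides, was at 3.77 and 4.06 FPKM in KO, against 4.20 and 4.63 FPKM in WT. Its groups did not overlap, with a log2 difference of −0.14 (95% limits −0.42 to 0.14, limma adjusted p = 0.515). The ratio of Tlr1 to Tlr6 averaged 2.99 ± 0.0223 in KO, against 2.59 ± 0.0711 in WT (SD, n = 2 each), and the ratio of Tlr1 to Tlr2 was 2.49 and 2.48 in KO, against 1.86 and 1.99 in WT. Both ratios were higher in the KO libraries than in either WT library; a permutation of 2 against 2 libraries cannot give a two-sided exact p below 0.333, so they are given as values. The first ratio also rests on the split of shared reads described above.

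Tlr4, the lipopolysaccharide receptor, was near the limit for testing. Tlr4 (chromosome 4, 66827584 to 66930284, plus strand) was at 0.850 and 1.07 FPKM in KO, against 1.28 and 0.955 FPKM in WT, from 87 and 101 against 131 and 88 reads. The groups overlapped, and the log2 difference of −0.11 had limits of −0.54 to 0.32 (limma adjusted p = 0.750). Its co-receptor genes Ly96 and Cd14 averaged 5.27 and 3.42 FPKM over the 4 libraries. Their log2 differences were −0.37 and 0.20 (limma adjusted p = 0.155 and 0.432).

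The endosomal receptors were led by Tlr13, which in mice recognises bacterial ribosomal RNA. Tlr13 (chromosome X, 106143204 to 106160493, plus strand) was at 4.65 and 4.95 FPKM in KO, against 6.18 and 4.47 FPKM in WT. The WT libraries enclosed both KO libraries, with a log2 difference of −0.11 (95% limits −0.48 to 0.26, limma adjusted p = 0.705) that became 0.085 without WT replicate 1. Tlr7, the receptor for single-stranded RNA (chromosome X, 167304929 to 167330558, minus strand), was at 0.638 and 1.34 FPKM in KO, against 1.62 and 1.31 FPKM in WT. KO replicate 1 was low, on 48 reads, while KO replicate 2, on 93 reads, was within the range of the WT libraries, on 122 and 89 reads. Its log2 difference of −0.33 was the most negative of the set and had the widest limits, −0.86 to 0.20 (limma adjusted p = 0.422), and it became −0.075 without KO replicate 1. On recovered reads, limma-voom gave −0.70 for Tlr7 (adjusted p = 0.184).

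Tlr9 (chromosome 9, 106222598 to 106226883, plus strand) was at 0.156 and 0.253 FPKM in KO, against 0.187 and 0.260 FPKM in WT. These values came from 10 and 15 reads in KO and 12 and 15 reads in WT, and the exact 95% Poisson limits on the 10 reads of KO replicate 1, for counting error only, were 4.80 to 18.4 reads. The groups overlapped, and so few reads cannot show a small or moderate difference. Of the 3 other Toll-like receptors in the table, all below 1 FPKM, Tlr8, a relative of Tlr7, was at 0.409 and 0.377 FPKM in KO, against 0.741 and 0.807 FPKM in WT, from 27 and 23 against 49 and 48 reads. Both KO libraries were lower, but in a fit without the filter on level Tlr8 did not pass (log2 difference −0.35, limma adjusted p = 0.264). Tlr12, which with Tlr11 senses protozoan profilin in mice, was at 0.342 and 0.610 FPKM in KO, against 0.614 and 0.778 FPKM in WT. The flagellin receptor Tlr5 was at 0.0907 and 0.147 FPKM in KO, against 0.0792 and 0.0629 FPKM in WT, on 5 to 12 reads per library. Tlr3 and Tlr11 had no entry under these symbols in the table.

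Summed over the 10 Toll-like receptors in the table, the level was 26.8 and 29.7 FPKM in KO, against 31.3 and 31.6 FPKM in WT. Tlr1, Tlr2 and Tlr6 made up 73.4% and 70.6% of it in KO, against 65.8% and 72.6% in WT, with overlap between the groups. The endosomal receptors Tlr7, Tlr8, Tlr9, Tlr12 and Tlr13 together were at 6.20 and 7.53 FPKM in KO, against 9.34 and 7.63 FPKM in WT. Tlr13 supplied most of that sum, and the highest value was that of WT replicate 1.

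The trafficking factor Unc93b1, which escorts nucleic-acid receptors out of the endoplasmic reticulum, was the most abundant gene of the set and had the smallest p. Unc93b1 (chromosome 19, 3935186 to 3949340, plus strand) was at 129 and 120 FPKM in KO, against 166 and 142 FPKM in WT, from 7176 and 6174 against 9304 and 7144 reads. Both KO libraries were below both WT libraries, and the WT libraries were farther apart than the KO libraries. The log2 difference was −0.31 (95% limits −0.57 to −0.04), with a limma adjusted p = 0.198 and a limma-voom adjusted p = 0.075. It lay between −0.42 and −0.20 with each library left out in turn.

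Myd88, the common adaptor (chromosome 9, 119335934 to 119341411, minus strand), was at 42.6 and 40.4 FPKM in KO, against 58.6 and 43.7 FPKM in WT. WT replicate 1 stood above the other 3 libraries, and WT replicate 2 was close to the KO libraries. The log2 difference of −0.28 (95% limits −0.63 to 0.07, limma adjusted p = 0.311) shrank to −0.074 with WT replicate 1 left out and was −0.49 with WT replicate 2 left out. Irak4, the first kinase of the MyD88 complex (chromosome 15, 94543643 to 94581815, plus strand), was at 11.3 and 11.5 FPKM in KO, against 12.5 and 14.1 FPKM in WT. The KO libraries were nearly equal and both below WT, with a log2 difference of −0.20 (95% limits −0.44 to 0.03, limma adjusted p = 0.285). The exons of Myd88 and Acaa1a overlap on opposite strands by 290 bases (11.3% of the Myd88 exons), and those of Irak4 and Twf1 by 395 bases (7.87% of the Irak4 exons). The library kit's description does not mention strand, so it is not known whether reads from these stretches were assigned to the right gene.

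**Figure D3:**
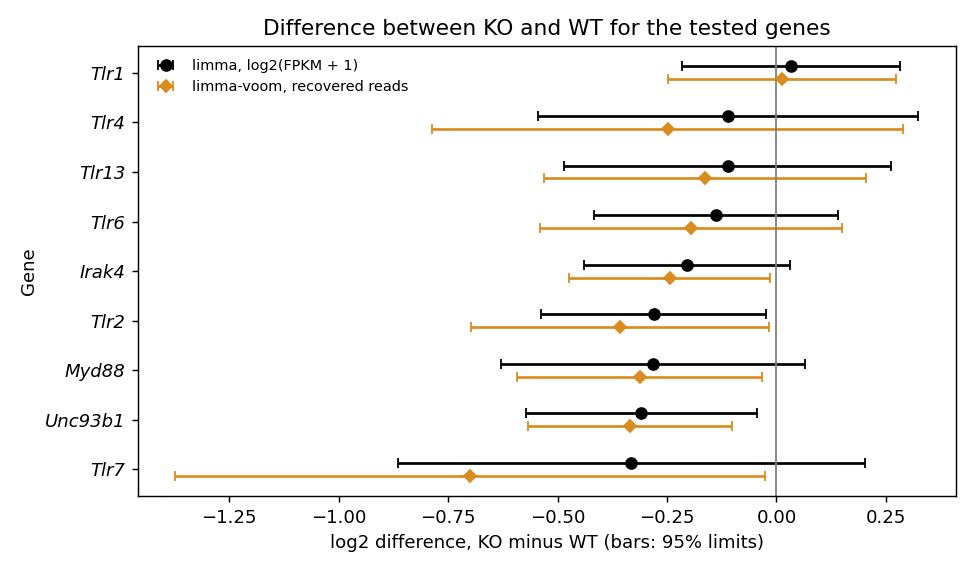
Difference between KO and WT (KO minus WT, log2) with 95% limits for the 9 tested genes, by limma on log2(FPKM + 1) in black and by limma-voom on recovered reads in orange. Values run from 0.03 for Tlr1 to −0.33 for Tlr7 by limma, and most limits are wider than the differences.

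Genes with the most similar profile were sought by the distance between log2(FPKM + 1) values over the 4 libraries, each centred on its mean, among 11759 other tested genes. Closest to Tlr2 were Bend4, Gm22486 and Emc7 (distances 0.024, 0.029 and 0.030 log2 units). Closest to Tlr13 were Susd3, Eml4 and Clptm1 (0.043, 0.047 and 0.052). Closest to Myd88 were Fads2, Cyp4f18 and Rara (0.048, 0.053 and 0.059). With only 4 libraries many genes share a profile, and the distances are a description.

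Changes that passed the test lay elsewhere in the pathway, in endosomal proteases and IRF factors. Over the 9 other lists of pathway genes, 83 genes were listed, 72 were in the table and 58 were tested. Of these, 0 rose, 4 fell and 54 did not pass, against 0.603% higher and 0.408% lower of all tested genes. The lists were chosen with earlier results of these data known. The median log2 difference of the 58 was 0.02, close to that of all tested genes. The 4 that fell were Lgmn, Ctss, Irf5 and Irf8.

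**Figure D4:**
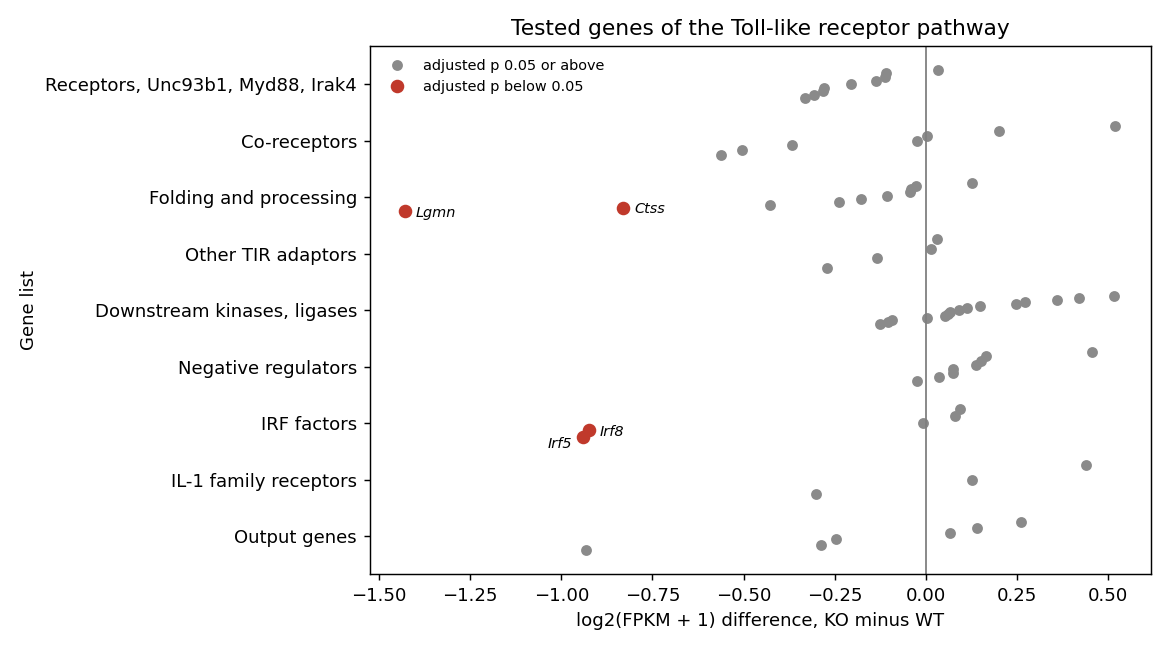
Difference between KO and WT (log2(FPKM + 1), KO minus WT) for each tested gene of the pathway lists, with genes at an adjusted p below 0.05 in red. The 4 red genes, Lgmn, Ctss, Irf5 and Irf8, all lie below −0.8, and the receptors with Unc93b1, Myd88 and Irak4 lie between −0.33 and 0.03.

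In the list of folding and processing genes, 10 were tested. Of these 2 fell, against 0.408% of all tested genes, and 8 did not pass, with none higher (median −0.14). Legumain (Lgmn), an endosomal protease that can cleave TLR9, was at 6.68 and 5.61 FPKM in KO, against 17.8 and 18.6 FPKM in WT. Both KO libraries were far below both WT libraries, with a log2 difference of −1.43 (95% limits −1.69 to −1.17, limma adjusted p = 0.0091). Cathepsin S (Ctss), a lysosomal protease also implicated in receptor cleavage, was at 121 and 117 FPKM in KO, against 231 and 195 FPKM in WT (log2 difference −0.83, limma adjusted p = 0.037). Cathepsin B (Ctsb) was at 111 and 96.2 FPKM in KO, against 145 and 133 FPKM in WT, and passed by limma-voom only (adjusted p = 0.124 by limma and 0.023 by limma-voom). The adjusted p of Lgmn was 0.108 without WT replicate 1 and 0.079 without WT replicate 2, and that of Ctss ran from 0.085 to 0.211 with each library left out in turn. Ctss also missed the threshold without the filter on level (0.090), with median-ratio scaling (0.055), without the trend (0.081) and under a replicate block (0.051). The log2 differences with 1 library left out were −1.54 to −1.32 for Lgmn and −0.95 to −0.71 for Ctss.

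Of the 5 IRF factors that act downstream of Toll-like receptors, 2 fell, 0 rose and 3 did not pass (median −0.01). Over all tested genes, 0.408% were called lower. Irf5, which MyD88 engages directly, was at 15.3 and 15.4 FPKM in KO, against 32.7 and 28.2 FPKM in WT. The KO libraries were almost equal and both below WT (log2 difference −0.94, limma adjusted p = 0.020). Irf8, a factor of the monocyte and dendritic lineages, was at 16.3 and 15.3 FPKM in KO, against 34.6 and 27.4 FPKM in WT (log2 difference −0.92, limma adjusted p = 0.039). With each library left out in turn, the adjusted p ran from 0.066 to 0.130 for Irf5 and from 0.079 to 0.221 for Irf8, and the log2 differences from −1.04 to −0.84 and from −1.09 to −0.76. Both missed the threshold without the filter on level (0.054 for Irf5 and 0.094 for Irf8) and without the trend (0.062 and 0.082), and Irf8 did with median-ratio scaling (0.055). By limma-voom Lgmn, Ctss, Irf5 and Irf8 all passed. Irf1 was at 15.2 and 14.5 FPKM in KO, against 13.5 and 14.2 FPKM in WT (limma adjusted p = 0.558).

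No co-receptor passed the limma test (7 tested, median −0.02), against 1.01% of all tested genes. However, 3 passed by limma-voom, against 7.11% of all genes it tested. Ly86, the partner of the TLR4-like receptor Cd180, was at 39.4 and 40.0 FPKM in KO, against 62.5 and 55.8 FPKM in WT (adjusted p = 0.057 by limma and 0.0042 by limma-voom). Cd180 itself was at 2.87 and 2.81 FPKM in KO, against 4.57 and 4.33 FPKM in WT (adjusted p = 0.110 by limma and 0.024 by limma-voom). Lbp, which delivers lipopolysaccharide, was on the other side, at 26.2 and 28.3 FPKM in KO, against 18.0 and 19.5 FPKM in WT (adjusted p = 0.067 by limma and 0.0089 by limma-voom). For all 3 the groups did not overlap. Over all tested genes, 24.9% had both KO libraries below both WT libraries and 30.5% had them above.

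Downstream of the receptors, 0 of 15 tested kinases, ubiquitin enzymes and their partners, 0 of 8 negative regulators and 0 of 4 further adaptors passed the limma test, with median log2 differences of 0.09, 0.11 and −0.06. In either direction, limma called 1.01% of all tested genes, and limma-voom 7.11% of those it tested. Ikbke, an IKK-related kinase, was at 15.5 ± 1.11 FPKM in KO, against 10.5 ± 0.737 FPKM in WT (SD, n = 2 each; adjusted p = 0.086 by limma and 0.0099 by limma-voom). Irak3, an IRAK family member that restrains signalling, was at 15.0 and 15.1 FPKM in KO, against 10.9 and 10.6 FPKM in WT (adjusted p = 0.077 by limma and 0.026 by limma-voom). Both genes were higher in both KO libraries than in either WT library, as were 30.5% of all tested genes. Traf3, an adaptor of interferon signalling, had a log2 difference of 0.42 and Tab2, which links TRAF6 to TAK1, of 0.36 (limma adjusted p = 0.183 and 0.201). Otud4 and Tank among the negative regulators were at 0.16 and 0.15 (limma adjusted p = 0.435 and 0.439). The adaptors Ticam2, Ticam1 and Pik3ap1 were at −0.27, −0.14 and 0.03 (limma adjusted p = 0.427, 0.533 and 0.878).

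IL-1 family receptors also signal through MyD88, and 0 of 3 tested passed the limma test, against 1.01% of all tested genes. By limma-voom 1 passed, against 7.11% of all genes it tested. Il18rap, a chain of the IL-18 receptor, was at 8.47 and 10.4 FPKM in KO, against 7.25 and 6.11 FPKM in WT (adjusted p = 0.166 by limma and 0.048 by limma-voom). The decoy receptor Il1r2 was at 35.4 and 37.2 FPKM in KO, against 55.3 and 36.4 FPKM in WT, where WT replicate 1 alone was high (limma adjusted p = 0.393). Il1rap was at 2.07 and 2.11 FPKM in KO, against 1.81 and 1.85 FPKM in WT (limma adjusted p = 0.616).

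Among genes that Toll-like receptor signalling induces, 16 were listed, 9 were in the table and 6 were tested. Of the 6, 0 passed by limma (median −0.09), against 1.01% of all tested genes. By limma-voom 1 passed, against 7.11% of all genes it tested. The chemokine Ccl4 was at 32.6 and 24.0 FPKM in KO, against 51.6 and 57.1 FPKM in WT (log2 difference −0.93, adjusted p = 0.057 by limma and 0.0026 by limma-voom). With each library left out in turn its limma adjusted p ran from 0.040 (without KO replicate 1) to 0.224, and 1 of the 4 fits passed. Icam1 and Ccl3, an adhesion molecule and a chemokine, had log2 differences of −0.25 and −0.29 (limma adjusted p = 0.236 and 0.244). Tnf, Nfkbia and Nfkbiz, also tested, lay above 0, at 0.26, 0.14 and 0.06 (limma adjusted p = 0.500, 0.432 and 0.864).

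Markers of other cell types moved between the groups as well. Over all tested genes, limma called 0.603% higher and 0.408% lower, and limma-voom 3.74% higher and 3.37% lower. Macrophage markers (9 of 10 in the table, none at 0 in all libraries) summed to 309 and 292 FPKM in KO, against 476 and 412 FPKM in WT. Of 7 tested, 3 fell, C1qa, C1qb and C1qc, and limma-voom also called Cd68 lower. Monocyte markers (8 of 8) summed to 855 and 928 FPKM in KO, against 857 and 745 FPKM in WT, and 1 of 7 tested fell, Ms4a6c. The sum was carried by Ly6c2 (mean 607 FPKM over the 4 libraries, log2 difference 0.33), whereas 5 of the 7 differences were below 0 (median −0.38), and limma-voom called Ccr2, Ms4a6c and Cx3cr1 lower and Fcgr4 higher. Neutrophil markers (10 of 10) summed to 2904 and 3493 FPKM in KO, against 1238 and 1275 FPKM in WT, and 7 of 10 rose, among them Mmp9 and Camp. S100a8 and S100a9 had the highest means in that sum (956 and 513 FPKM over the 4 libraries). The others, Ltf, Cxcr2 and Ly6g, were not called, with log2 differences of −0.05, −0.11 and 0.38 (limma adjusted p = 0.915, 0.680 and 0.293). The 4 B cell markers analysed summed to 135 and 119 FPKM in KO, against 222 and 212 FPKM in WT. Of the 4, 2 fell, Ighm and Igkc, and limma-voom also called Cd79b lower. Plasmacytoid dendritic cell markers (4 of 7, without Siglech, Ccr9 and Klk1) summed to 113 and 114 FPKM in KO, against 118 and 113 FPKM in WT, with 0 of 4 called. Conventional dendritic cell markers (4 of 7) summed to 34.1 and 31.3 FPKM in KO, against 43.6 and 45.4 FPKM in WT. By limma 0 of 3 were called, while limma-voom called Flt3 lower (mean 22.9 FPKM over the 4 libraries, adjusted p = 0.0050). T and NK cell markers (8 of 8) summed to 434 and 366 FPKM in KO, against 299 and 360 FPKM in WT, with 0 of 5 called by limma. Nkg7 carried that sum (mean 351 FPKM over the 4 libraries, log2 difference 0.33). However, 4 of the 5 had log2 differences below 0 (median −0.64), and limma-voom called Gzma lower (adjusted p = 0.011). Erythroid markers (7 of 7) summed to 421 and 514 FPKM in KO, against 92.6 and 83.5 FPKM in WT, and 5 of 6 tested rose. The part of these shifts in the differences of Toll-like receptor pathway genes was not tested.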

How the data were processed

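mRNA was measured in 4 libraries, whose titles gave the groups. The tools named, per the submitters' processing notes, are HISAT2 2.1.0, featureCounts, CASAVA and DESeq2, with the build GRCm38 and no statement of roles. The authors deposited 1 table whose values behaved as FPKM with 1 added (the lowest was exactly 1), and that 1 was subtracted. Symbols were matched to GENCODE M21 (16003 of 16442 genes). FPKM times exonic length fell on whole multiples of 1 read, within 0.05, for 99.0% to 99.2% of low values (30 reads or fewer), and reads were recovered for 15801 genes.

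Log2(FPKM + 1) was tested with limma 3.58.1 (R 4.3.3, trend), group as the only term, for genes averaging 1 FPKM or more, two-sided, with Benjamini-Hochberg adjustment over all 11768; this scale understates changes of low genes. The fit had 2 residual and 4.10 prior degrees of freedom. limma-voom on recovered reads used an unweighted trimmed mean of log ratios for scaling. Scripts were tested on simulated data. Alternatives were another pseudocount, no filter on level, median-ratio scaling, no trend, a replicate block, recovered reads and leaving out each library. Genes and lists were chosen with earlier results of these data known. The text names all 10 genes and every other Toll-like receptor in the table. Per list it names the called genes, or those of the smallest p up to 3 genes. Of the marker lists only some of these are named. A few further genes, such as Ly96, Cd14 and Tnf, are named outside this rule.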

Additional observations from a re-analysis of the deposited data

How the results depend on the processing

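The 9 tested genes gave 0 calls in either direction under all 10 alternatives, and Tlr9 was tested only without the filter on level, where it was not called. Of 90 values of the 9 tested genes under them, 85 kept their sign and side of the threshold. The others changed sign without being called: Tlr1 was at −0.0021 with median-ratio scaling, and ranged from −0.056 to 0.12 with 1 library left out, while Tlr4 ranged from −0.22 to 0.00063 and Tlr13 from −0.31 to 0.085. The adaptor Pik3ap1 was at −0.0061 with median-ratio scaling and at −0.065 to 0.13 with 1 library left out. The median of the set ran from −0.24 to −0.096 with 1 library left out, the smallest size being without KO replicate 1.

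Counts over all genes depended on the fit. Against 71 higher and 48 lower, there were 22 and 10 without the filter on level, 45 and 30 with median-ratio scaling, 26 and 14 without the trend and 426 and 384 in limma-voom. With 1 library left out they ran from 4 to 50 higher and from 2 to 14 lower, in fits where the lone library is assumed to vary like the other group. With the replicate number as a block there were 40 and 26; same-numbered libraries did not deviate together (correlation 0.009), so the numbers are not taken as pairs. Under the block Ctss lost its call (adjusted p = 0.051). The median of all genes moved from 0.03 to −0.0083 with median-ratio scaling. Tlr9, Tlr8, Tlr12 and Tlr5 rest on 5 to 49 reads per library, where depth limits any comparison.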
